A study of Mus musculus with 6 samples.

Results

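The genes described here are Hif1a, which encodes the oxygen-regulated subunit of hypoxia-inducible factor, and 8 genes known as its regulators or targets: Egln1, Egln3, Ndrg1, Bnip3, Bnip3l, Ankrd37, Vegfa and P4ha1. They were chosen by name, with earlier results of these data known, and all 9 were found among the 29626 genes of the deposited count table. RNA was read in CD4+CD8+ double-positive thymocytes isolated by flow cytometry from mice of 8 weeks. The control group was 3 Kansl1fl/fl mice, in which Kansl1 is floxed and no Cre is present, labelled WT. The KANSL1-deficient group was 3 Kansl1fl/fl CD4-Cre mice, in which the same floxed gene is combined with Cre under Cd4 control, a driver that becomes active as thymocytes reach the double-positive stage, and the controls were their littermates. Both groups carry the floxed Kansl1 gene and only 1 carries Cre, and with this design the presence of Cre and the loss of Kansl1 cannot be told apart. KANSL1 is a scaffold subunit of the NSL complex, which holds the histone acetyltransferase KAT8. The comparison asks which transcripts differ between the 2 genotypes at this stage.

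Hypoxia-inducible factor is a transcription factor made of an alpha subunit, such as HIF1A, and the constant partner ARNT. Where oxygen is plentiful, prolyl hydroxylases of the EGLN family mark the alpha subunit, the VHL ubiquitin ligase binds the mark and the protein is degraded. Where oxygen is scarce the subunit persists, enters the nucleus and binds short elements with the core ACGTG or GCGTG near genes of glycolysis, blood vessel growth, mitochondrial turnover and oxygen sensing itself. The activity of the factor is thus set largely on its protein, which RNA counts do not measure. The thymic cortex, where double-positive cells reside, is a poorly oxygenated tissue, and developing thymocytes depend on VHL.

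Promoter sequences were available for 7 of the 9 genes in RefSeq windows of GRCm38.p6 that run from 250 bases before to 50 bases after a transcript start. Ndrg1 and Bnip3l had no window. Both cores were searched on both strands, and a CACGTG palindrome counts as 2 overlapping ACGTG matches. Among all 32851 such windows of 300 bases, 19.6% held ACGTG, 32.4% held GCGTG and 43.8% held either. The 4 sequences below are the 250 bases before the start of Hif1a, Egln3 and Bnip3, whose RNA levels did not overlap between the groups, and of Ankrd37, whose levels did overlap. They are written 5′ to 3′ on the strand of the gene, with matches to either core in capitals, in GRCm38.p6.
Hif1a, chr12:73907617-73907866, plus strand: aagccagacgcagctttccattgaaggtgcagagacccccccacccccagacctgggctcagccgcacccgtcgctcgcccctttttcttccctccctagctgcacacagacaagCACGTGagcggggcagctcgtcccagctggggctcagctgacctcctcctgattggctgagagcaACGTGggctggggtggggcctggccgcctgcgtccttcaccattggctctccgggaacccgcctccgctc
Egln3, chr12:54203875-54204124, minus strand: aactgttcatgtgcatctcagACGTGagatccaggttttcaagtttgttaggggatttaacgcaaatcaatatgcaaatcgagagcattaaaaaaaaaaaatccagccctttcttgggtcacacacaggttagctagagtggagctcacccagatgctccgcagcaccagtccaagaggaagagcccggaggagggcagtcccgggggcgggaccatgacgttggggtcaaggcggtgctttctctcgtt
Bnip3, chr7:138909507-138909756, minus strand: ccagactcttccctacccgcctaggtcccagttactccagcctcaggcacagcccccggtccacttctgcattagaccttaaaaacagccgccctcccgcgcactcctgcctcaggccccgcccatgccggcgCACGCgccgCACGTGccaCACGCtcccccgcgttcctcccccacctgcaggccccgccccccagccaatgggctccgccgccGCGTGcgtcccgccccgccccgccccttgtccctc
Ankrd37, chr8:45999851-46000100, minus strand: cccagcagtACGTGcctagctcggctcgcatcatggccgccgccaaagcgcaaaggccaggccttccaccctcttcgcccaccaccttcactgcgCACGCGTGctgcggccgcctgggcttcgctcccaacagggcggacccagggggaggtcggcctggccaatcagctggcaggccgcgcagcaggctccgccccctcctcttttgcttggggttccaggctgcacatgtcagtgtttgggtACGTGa
The Bnip3 window held 5 matches, the most of the 7 genes, of which 2 form a CACGTG palindrome whose matches begin 108 and 107 bases before the start. Ankrd37 had 4 matches, Hif1a and P4ha1 had 3 each, Egln1 had 2 and Egln3 had 1. Vegfa, on the minus strand, has 2 windows. The upstream one, 46032328 to 46032627, had 0 matches, and the one further downstream, 46025114 to 46025413, had 2. Among all windows, 20.6% held at least 2 matches. These letters describe the windows and show no binding.

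Levels below are CPM, read counts relative to library size, scaled by edgeR's TMM factors, and fold changes are KANSL1-deficient over control. The targeted gene, Kansl1, had 214, 189 and 230 CPM in controls and 146, 168 and 188 CPM in KANSL1-deficient libraries, with no overlap by a narrow gap (log2 fold change -0.33 ± 0.14, SE; edgeR adjusted p = 0.171). Counts over the whole gene include reads outside any deleted part, so they check the labels weakly. Libraries held 19361968 to 22459830 counts, and no pair of libraries agreed within counting noise.

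Ndrg1 was the 1 gene of the 9 that rose with KANSL1 deficiency, and the other 8 did not pass the threshold, an adjusted p under 0.05 in edgeR's quasi-likelihood test with Benjamini-Hochberg adjustment over all 15353 tested genes. All 9 genes passed the filter on low counts. Over all tested genes 6.76% passed, 3.85% as higher and 2.91% as lower, so 1 of 9 is near the background. In 5 of the 9 genes the control and KANSL1-deficient levels were fully separated, 3 higher (Hif1a, Egln3, Ndrg1) and 2 lower (Bnip3, Vegfa), against 28.5% of all tested genes. An unadjusted p under 0.05 was reached by 4 of the 9 and by 22.6% of all tested genes. The median log2 fold change of the 9 was 0.17 and that of all tested genes -0.02. Because the 9 were chosen with earlier results of these data known, these shares and medians describe them and test nothing. The labels number separate mice, and p-values measure the spread between them. These are bulk samples, in which more cells of a type and more RNA per cell cannot be told apart.

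**Figure D1:**
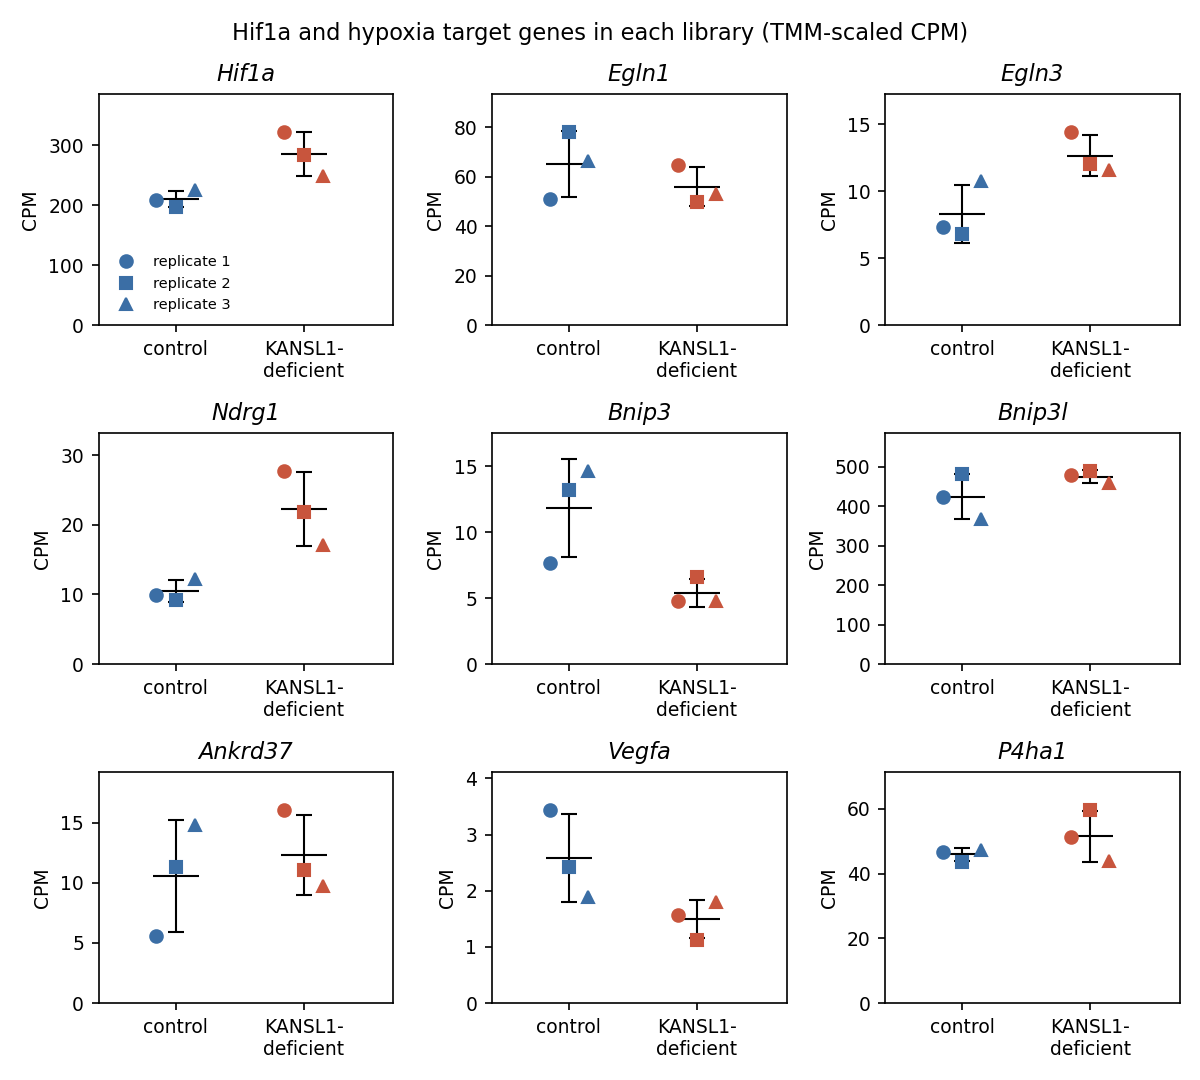
TMM-scaled CPM (vertical axes, from 0) of the 9 genes in each of the 3 control and 3 KANSL1-deficient libraries; points are libraries, shaped by replicate number, and bars are the mean and SD of 3. Hif1a, Egln3 and Ndrg1 lie higher and Bnip3 and Vegfa lower in all KANSL1-deficient libraries than in any control library, while the groups overlap for Egln1, Bnip3l, Ankrd37 and P4ha1.

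The factor itself was read at a high level. Hif1a (ENSMUSG00000021109, GRCm39 chromosome 12, 73948149 to 73994304, plus strand) had 209, 197 and 225 CPM in control replicates 1 to 3 and 322, 284 and 249 CPM in KANSL1-deficient replicates 1 to 3. Every KANSL1-deficient library was above every control library, with replicate 1 the highest. The log2 fold change was 0.44 ± 0.13 (SE; 95% interval 0.16 to 0.72; edgeR adjusted p = 0.0629), and the Wald test of DESeq2 called it (adjusted p = 0.0178). With DESeq2 3 of the 9 genes passed (Bnip3, Hif1a and Ndrg1), against 16.1% of all genes it adjusted, and with limma-voom 1 passed (Ndrg1), against 7.99%. With library totals in place of TMM factors, a choice that shifted all tested genes by -0.15, the log2 fold change was 0.29 (edgeR adjusted p = 0.184). A long non-coding gene, Gm15283, lies on the opposite strand across all 46156 bases of Hif1a, and was counted 35 to 98 times per library against 4319 to 6545 counts for Hif1a. The strand setting of the counting is not stated in the labels, so reads of such pairs could be shared.

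Partners of the factor did not pass the threshold. Of 6 tested subunits and cofactors other than Hif1a, 0 passed with edgeR, 1 had an unadjusted p under 0.05, and 5 had positive values, Epas1 being the exception at -0.20. Arnt, the constant partner, had 104, 107 and 115 CPM in controls and 154, 127 and 116 in KANSL1-deficient libraries (log2 fold change 0.28 ± 0.14, SE; edgeR adjusted p = 0.263). Cited2, which competes with the factor for the coactivators EP300 and CREBBP and is itself a hypoxia-induced gene, had 35.3, 43.4 and 51.2 CPM in controls and 80.6, 57.4 and 66.1 in KANSL1-deficient libraries. Its log2 fold change was 0.65 ± 0.19 (SE; edgeR adjusted p = 0.0549), with no overlap, and DESeq2 and limma-voom called it (adjusted p = 0.0102 and 0.0469). The other oxygen-regulated alpha subunits were scarce: Epas1 had 3.10 to 5.66 CPM over the 6 libraries and Hif3a 0.24 to 3.20 CPM.

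None of the 3 prolyl hydroxylase genes passed the threshold with edgeR, and their values had both signs. Egln1, which encodes the main prolyl hydroxylase for HIF1A (ENSMUSG00000031987, chromosome 8, 125635326 to 125676063, minus strand), had 51.2, 78.1 and 66.4 CPM in controls and 65.0, 49.9 and 53.2 in KANSL1-deficient libraries. The groups overlapped, and the log2 fold change was -0.22 ± 0.18 (SE; 95% interval -0.62 to 0.18; edgeR adjusted p = 0.538). Egln3, a hydroxylase whose gene is strongly induced by hypoxia in many cells (ENSMUSG00000035105, chromosome 12, 54225767 to 54250646, minus strand), had 7.35, 6.78 and 10.8 CPM in controls. In KANSL1-deficient libraries it had 14.4, 12.0 and 11.6 CPM, all above the controls, though control replicate 3 came close to the lowest of them. Its log2 fold change was 0.61 ± 0.27 (SE; 95% interval 0.03 to 1.19; edgeR adjusted p = 0.201). On the FPKM scale, which has no TMM factors, its groups overlapped. Egln2, the third prolyl hydroxylase, had 35.0, 34.6 and 53.4 CPM in controls and 55.4, 61.9 and 65.4 in KANSL1-deficient libraries (log2 fold change 0.57 ± 0.19, SE; edgeR adjusted p = 0.0949), and DESeq2 called it (adjusted p = 0.0358).

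The balance between the 2 hydroxylase genes was compared within each library, where scaling cancels. On the scale of FPKM, which divides counts by gene length and depth, Egln1 exceeded Egln3 5.16, 8.53 and 4.57 times in control replicates 1 to 3 and 3.34, 3.07 and 3.41 times in KANSL1-deficient replicates. The ratio was lower in every KANSL1-deficient library, and its mean difference on the log2 scale was -0.84. An exact two-sided permutation test gave p = 0.1, the smallest that 3 against 3 libraries allow, and 0.1 after Benjamini-Hochberg adjustment over the 2 ratios tested here. Both genes also enter the single-gene values above.

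Degradation of the factor was represented by 9 tested genes besides Egln1 and Egln3, and 0 of them passed with edgeR while 2 had an unadjusted p under 0.05. The list holds Vhl, which encodes the recognition subunit of the ligase, and Hif1an, an asparagine hydroxylase that blocks coactivator binding. Vhl had 102 ± 8.07 CPM in controls and 88.6 ± 12.5 CPM in KANSL1-deficient libraries (SD, n = 3 each; log2 fold change -0.20). Siah2, a ubiquitin ligase that acts on EGLN proteins, had 13.8, 18.0 and 10.4 CPM in controls and 10.4, 7.83 and 8.71 in KANSL1-deficient libraries (log2 fold change -0.65 ± 0.27, SE; edgeR adjusted p = 0.175). Of the 9 values, 8 were negative.

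Ndrg1 rose in the KANSL1-deficient libraries. It encodes a cytoplasmic protein induced by hypoxia, metal depletion and differentiation in many cell types (ENSMUSG00000005125, chromosome 15, 66801167 to 66841489, minus strand). It was counted 206, 208 and 278 times in controls, or 9.96, 9.16 and 12.2 CPM, and 563, 463 and 343 times in KANSL1-deficient libraries, or 27.7, 21.8 and 17.2 CPM. The groups were well apart, and KANSL1-deficient replicate 1 was again the highest. The fold change was 2.13, or 1.09 ± 0.24 on the log2 scale (SE; 95% interval 0.56 to 1.62; edgeR adjusted p = 0.0234), rank 512 of 15353 genes by p. The authors' deposited table gives it an adjusted p of 7.73e-04.

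The call for Ndrg1 was lost when some libraries were left out. It did not pass without control replicate 1 (edgeR adjusted p = 0.0573), without control replicate 2 (0.0914), without KANSL1-deficient replicate 1 (0.118) and without KANSL1-deficient replicate 2 (0.0818), with log2 fold changes of 0.90 to 1.25 over all 6 omissions. On log2 of FPKM plus 1 the value was 0.64, a scale that compresses low genes, and limma did not call it (adjusted p = 0.0852). A long non-coding gene, Gm2895, overlaps 318 bases of Ndrg1 on the opposite strand and had 0 to 12 counts per library. Among its family, Ndrg3 had 278 ± 22.2 and 339 ± 24.3 CPM (SD, n = 3 each; log2 fold change 0.29; edgeR adjusted p = 0.178). Ndrg2 was nearly level (41.8 and 40.7 CPM on average), and Ndrg4 had 2.82 and 1.31 CPM on average (log2 fold change -1.10 ± 0.68, SE; edgeR adjusted p = 0.377).

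Bnip3 and Bnip3l are the mitophagy receptors of the set. Both encode outer mitochondrial membrane proteins of the BCL2 family's BH3 type that tether mitochondria to the autophagy machinery, and both are classic hypoxia targets. Bnip3 (ENSMUSG00000078566, chromosome 7, 138492565 to 138511248, minus strand) had 7.64, 13.3 and 14.7 CPM in controls and 4.82, 6.65 and 4.76 CPM in KANSL1-deficient libraries. Every KANSL1-deficient library was below every control library, but control replicate 1 was much nearer to them than control replicates 2 and 3. The log2 fold change was -1.13 ± 0.32 (SE; 95% interval -1.82 to -0.44), just short of the threshold (edgeR adjusted p = 0.0530).

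Several other fits placed Bnip3 past the threshold. DESeq2 gave an adjusted p of 0.0107, the authors' deposited table gives 0.0110, and limma on log2 of FPKM plus 1 gave 0.0410, while limma-voom gave 0.0591. Without control replicate 1 the log2 fold change was -1.38 (edgeR adjusted p = 0.0245), and with any other library left out the adjusted p was 0.103 to 0.172. A processed pseudogene, Gm18258, overlaps 852 bases of Bnip3 on the opposite strand and was counted 0 to 20 times per library, against 95 to 333 counts for Bnip3.

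Bnip3l (ENSMUSG00000022051, chromosome 14, 67222688 to 67246326, minus strand) had 422, 482 and 368 CPM in controls and 478, 489 and 458 CPM in KANSL1-deficient libraries. The groups overlapped, and the log2 fold change of 0.16 ± 0.13 (SE; 95% interval -0.11 to 0.44; edgeR adjusted p = 0.495) was 0.02 with library totals. On the FPKM scale Bnip3l exceeded Bnip3 32.4, 21.4 and 14.7 times in controls and 58.2, 43.2 and 56.6 times in KANSL1-deficient libraries. The ratio was on average 2.41 times higher in KANSL1-deficient libraries, without overlap (exact two-sided permutation p = 0.1, the smallest possible, and 0.1 after adjustment over 2 ratios). Its difference of 1.27 on the log2 scale largely restates the value of Bnip3 alone, -1.13. Of the 10 tested partners and other mitophagy genes, 0 passed with edgeR and 1 had an unadjusted p under 0.05. That gene was Map1lc3b, an LC3 protein to which these receptors bind, with 734, 855 and 846 CPM in controls and 1164, 983 and 908 CPM in KANSL1-deficient libraries (log2 fold change 0.33 ± 0.13, SE; edgeR adjusted p = 0.144). Fundc1, another hypoxia-linked receptor, had 28.9 and 25.9 CPM on average.

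Ankrd37, a small ankyrin-repeat gene and a direct target of the factor in several cell types (ENSMUSG00000050914, chromosome 8, 46449939 to 46458744, minus strand), varied most among controls. It had 5.61, 11.3 and 14.8 CPM there and 16.0, 11.1 and 9.71 CPM in KANSL1-deficient libraries. The coefficient of variation was 43.8% among controls, the highest of the 9 genes, and 27.1% among KANSL1-deficient libraries. The log2 fold change was 0.21 ± 0.34 (SE; 95% interval -0.54 to 0.97; edgeR adjusted p = 0.787), and it was -0.10 without control replicate 1 and -0.02 without KANSL1-deficient replicate 1. Ankrd37 overlaps Ufsp2 by 57 bases and Lrp2bp by 6405 bases, both on the opposite strand, and they were counted 152 to 394 and 26 to 136 times per library against 116 to 336 for Ankrd37, so shared reads could move its values.

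Vegfa, the endothelial growth factor (ENSMUSG00000023951, chromosome 17, 46327919 to 46343295, minus strand), was barely read in these cells. It had 71, 55 and 43 counts in controls (3.43, 2.42 and 1.89 CPM) and 32, 24 and 36 in KANSL1-deficient libraries (1.57, 1.13 and 1.80 CPM). The groups were separated by a small gap between control replicate 3 and KANSL1-deficient replicate 3. The log2 fold change was -0.78 ± 0.49 (SE; 95% interval -1.84 to 0.29; edgeR adjusted p = 0.389), an interval that holds 0. Its receptor gene Flt1 had 0.87, 0.48 and 0.35 CPM in controls and 2.85, 2.17 and 1.60 CPM in KANSL1-deficient libraries (log2 fold change 1.95 ± 0.64, SE; edgeR adjusted p = 0.0862), and DESeq2 called it (adjusted p = 0.0397). Vegfb had 2.05 and 1.48 CPM on average. Of the 4 tested genes of this family other than Vegfa, 0 passed with edgeR and 1 had an unadjusted p under 0.05.

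P4ha1, a catalytic subunit of the collagen prolyl hydroxylase (ENSMUSG00000019916, chromosome 10, 59159118 to 59209126, plus strand), was the steadiest of the genes in controls, with 46.8, 43.8 and 47.2 CPM. KANSL1-deficient libraries had 51.3, 59.6 and 43.8 CPM, with replicate 3 among the controls. The log2 fold change was 0.17 ± 0.16 (SE; 95% interval -0.19 to 0.52; edgeR adjusted p = 0.613), and 0.01 with library totals. None of the 5 other collagen hydroxylase genes tested passed with edgeR, and 0 had an unadjusted p under 0.05. P4hb, the partner subunit, had 184 ± 23.4 and 209 ± 12.0 CPM, Plod1 28.0 ± 5.79 and 22.4 ± 5.23 CPM, and Plod3 1.79 ± 0.98 and 0.71 ± 0.34 CPM (SD, n = 3 each).

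**Figure D2:**
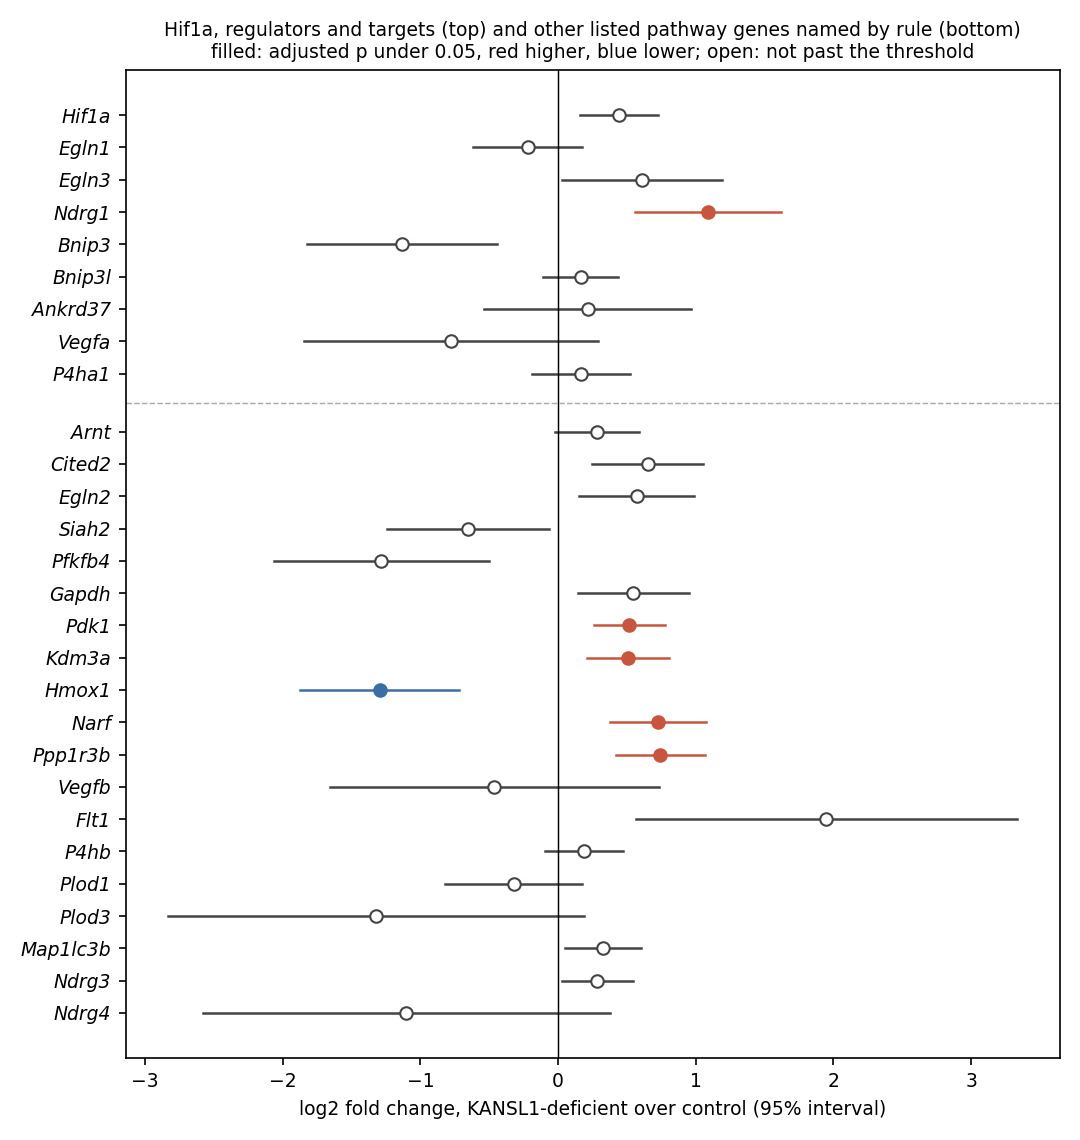
Log2 fold change of KANSL1-deficient over control libraries (horizontal axis; points with 95% intervals) for the 9 genes above the dashed line and the other listed pathway genes named by rule below it; filled points passed the edgeR threshold, red higher and blue lower. Ndrg1 at 1.09 is the filled point of the upper part, and Hmox1 at -1.30 lies opposite to Pdk1, Kdm3a, Narf and Ppp1r3b in the lower part.

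Wider lists of the pathway showed few changes. Of 75 tested genes other than the 9, 4 rose and 1 fell, near the background of 3.85% and 2.91%, and their median log2 fold change was 0.02. With the 9 included, 5 were higher and 1 lower, and with library totals 3 were higher and 4 lower, with 4 genes called by both. Among 19 glycolytic targets, 1 rose and none fell, with 6 at an unadjusted p under 0.05 and a median of 0.04. The 1 was Pdk1, the kinase that turns off pyruvate dehydrogenase, with 220.0, 209.7 and 221 CPM in controls and 304, 343 and 285 CPM in KANSL1-deficient libraries (log2 fold change 0.52 ± 0.12, SE; edgeR adjusted p = 0.0253). Pfkfb4, which sets fructose bisphosphate levels, had a negative value without passing, with 9.43, 5.81 and 12.3 CPM in controls and 2.95, 3.58 and 4.76 CPM in KANSL1-deficient libraries (log2 fold change -1.28 ± 0.36, SE; edgeR adjusted p = 0.0522). Gapdh had 65.5, 97.8 and 65.6 CPM in controls and 116, 126 and 92.8 CPM in KANSL1-deficient libraries, with overlap (log2 fold change 0.55; edgeR adjusted p = 0.0953). Gapdh has processed pseudogenes, and whether the counting split reads among them was not tested. The glucose transporter gene Slc2a1, a classic target, had a log2 fold change of -0.35 (edgeR adjusted p = 0.288), and Pgk1 one of 0.01. Ldha, Eno1 and Tpi1 had 0.37, 0.32 and 0.34 without passing (edgeR adjusted p = 0.0997, 0.195 and 0.214). Of the 19 values, 13 were positive and 6 negative.

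Among 19 other targets tested, 3 rose and 1 fell, with a median of 0.18, and 12 values were positive and 7 negative. Ppp1r3b, which directs a phosphatase to glycogen, had 67.6, 50.7 and 59.6 CPM in controls and 96.3, 107 and 94.3 CPM in KANSL1-deficient libraries (log2 fold change 0.74 ± 0.15, SE; edgeR adjusted p = 0.0149). Narf had 78.2, 62.7 and 94.1 CPM in controls and 133, 135 and 120 CPM in KANSL1-deficient libraries (0.72 ± 0.16; edgeR adjusted p = 0.0217). Kdm3a, a histone H3 lysine demethylase, had 200.1, 186 and 214 CPM in controls and 333, 256 and 263 CPM in KANSL1-deficient libraries (0.51 ± 0.14; edgeR adjusted p = 0.0453). In all 3 genes every KANSL1-deficient library was above every control library. With library totals Pdk1 and Kdm3a did not pass (edgeR adjusted p = 0.0754 and 0.122, with values of 0.37 and 0.35). With 1 library left out, Kdm3a never passed. Narf did not pass without control replicate 1 or 2 or KANSL1-deficient replicate 1 or 2 (edgeR adjusted p = 0.0570 to 0.0925), and Ppp1r3b did not pass without control replicate 2 or KANSL1-deficient replicate 1 or 2 (0.0574 to 0.0772). Pdk1 did not pass without control replicate 2 or 3 or KANSL1-deficient replicate 1 or 2 (0.0542 to 0.125). Rora, also among the 19 other targets, had a negative value without passing (log2 fold change -0.995 ± 0.286, SE; edgeR adjusted p = 0.0572). It had 30.7, 19.2 and 19.3 CPM in controls and 15.05, 7.83 and 11.8 CPM in KANSL1-deficient libraries, with no overlap.

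Hmox1, which encodes heme oxygenase and answers to oxidative stress and heme as well as to hypoxia, fell. It had 24.4, 18.6 and 19.8 CPM in controls and 9.99, 9.76 and 5.81 CPM in KANSL1-deficient libraries, and its log2 fold change was -1.30 ± 0.26 (SE; edgeR adjusted p = 0.0158). It did not pass without KANSL1-deficient replicate 2 (edgeR adjusted p = 0.0522) and passed with each other library left out. Hmox1 is abundant in macrophages: the summed level of 7 macrophage markers found in the table of the 8 listed was 10.6 to 16.7 CPM in controls and 8.86 to 15.6 CPM in KANSL1-deficient libraries. The defining marker Adgre1 had 0 counts in every control library and 2, 4 and 0 in KANSL1-deficient libraries. Of the 5 tested markers 0 passed with edgeR, and their values had both signs. Cd68 had 7.30, 11.8 and 11.7 CPM in controls and 9.89, 5.61 and 4.06 CPM in KANSL1-deficient libraries (log2 fold change -0.66; edgeR adjusted p = 0.308). Csf1r had 0.92 to 1.89 CPM in controls and 0 to 1.00 CPM in KANSL1-deficient libraries, and Lyz2 had 0 to 1.23 and 1.89 to 2.95 CPM. The part of such cells in the Hmox1 result was not tested.

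**Figure D3:**
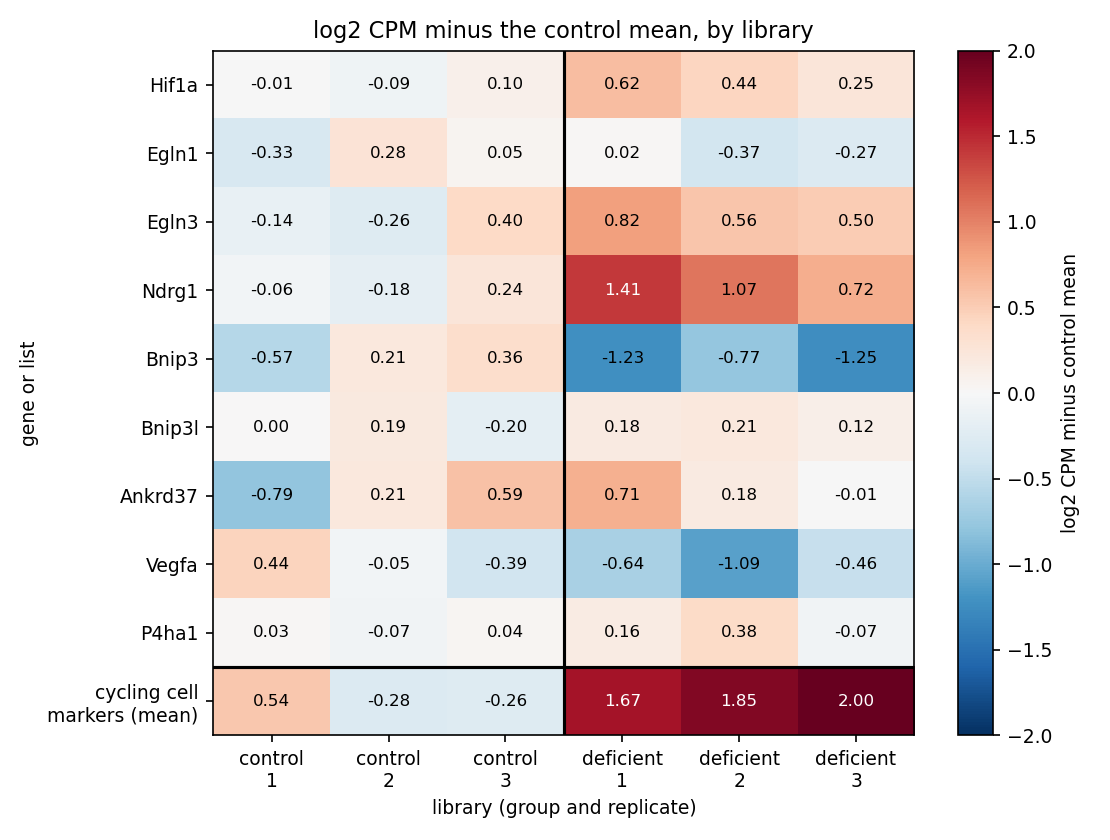
Log2 CPM of each of the 9 genes minus its control mean in each library (columns: control and KANSL1-deficient replicates 1 to 3; colour and printed values on the log2 scale), with the mean over 10 markers of cycling cells in the last row. Control replicate 1 stands at -0.57 for Bnip3 and -0.79 for Ankrd37, and the cycling markers lie between 1.67 and 2.00 in the KANSL1-deficient libraries.

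The spread within groups was partly shared among these genes. Relative to the control mean of log2 CPM, control replicate 1 was the lowest control for Bnip3 (-0.57), Ankrd37 (-0.79) and Egln1 (-0.33), and the highest for Vegfa (0.44). Control replicate 3 was the highest control for Hif1a (0.10), Egln3 (0.40), Ndrg1 (0.24), Bnip3 (0.36) and Ankrd37 (0.59). KANSL1-deficient replicate 1 was the highest of its group for Hif1a (0.62), Egln3 (0.82), Ndrg1 (1.41) and Ankrd37 (0.71) but not for Bnip3 (-1.23). The same library that was low for Bnip3 and Ankrd37 was also the lowest control for the mean of the 19 other targets (-0.28, against 0.07 and 0.21 in control replicates 2 and 3). It was the highest control for the mean of the 19 glycolytic targets (0.08, against -0.07 and -0.01) and of the 5 tested genes of the VEGF list, Vegfa included (0.36, against -0.23 and -0.13). Each gene weighs the same in these means, whatever its count. The other targets include Adm, with 0, 38 and 37 counts in control replicates 1 to 3, and Car12, with 6, 20 and 67. The VEGF list includes Flt1, with 18, 11 and 8 counts there, and Pgf, with 20, 9 and 33. How far such low genes set these means was not tested.

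Cell composition was checked with marker lists. Double-positive markers were abundant in all libraries, with summed levels of 12352 to 12842 CPM in controls and 14620 to 16310 CPM in KANSL1-deficient libraries, and Rag2 and Dntt rose. All 10 markers of cycling cells rose, from a sum of 190 to 335 CPM in controls to 685 to 857 CPM. Control replicate 1 had the most of the controls, 335 CPM against 191 and 190. It was the control nearest to the KANSL1-deficient libraries for Bnip3, whereas control replicate 3 was the nearest for Ndrg1 and Hif1a. The part of cycling cells in the values of Bnip3, Ndrg1 or Hif1a was not tested. Zbtb7b, the defining marker of CD4 single-positive cells, was at 1 count over all libraries. Markers of endothelial and stromal cells, which are rich in Vegfa pathway genes, included Cdh5 at 0 counts in every control library, Pdgfrb at 23 to 53 counts in controls and 4 to 9 in KANSL1-deficient libraries, and Pecam1, which made up most of a summed level of 134 to 202 and 183 to 229 CPM.

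Levels were compared between the genes per length, as the FPKM values deposited by the authors, over all 6 libraries. Bnip3l was the most abundant at 116 ± 9.30 FPKM (SD, n = 6), above 97.7% of tested genes. Hif1a followed at 41.6 ± 5.77 FPKM, Egln1 at 16.9 ± 3.50 and P4ha1 at 11.8 ± 1.15. Ankrd37 stood at 7.37 ± 2.32, Egln3 at 3.89 ± 0.91, Bnip3 at 3.88 ± 2.08, Ndrg1 at 2.43 ± 0.95 and Vegfa at 0.48 ± 0.21 FPKM, the last above 13.4% of tested genes. In this order the ranges over libraries overlapped between Egln1 and P4ha1, between Ankrd37 and Egln3, between Egln3 and Bnip3, and between Bnip3 and Ndrg1. The ranges of Bnip3l, Hif1a and Vegfa were each apart from their neighbours. The mitophagy receptors Bnip3l and Bnip3 stood at opposite parts of the order, and the gene that rose, Ndrg1, was the second lowest over all 6 libraries. By group mean, Ndrg1 was below Bnip3 in controls (1.67 against 5.49 FPKM) and above it in KANSL1-deficient libraries (3.185 against 2.26 FPKM).

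**Figure D4:**
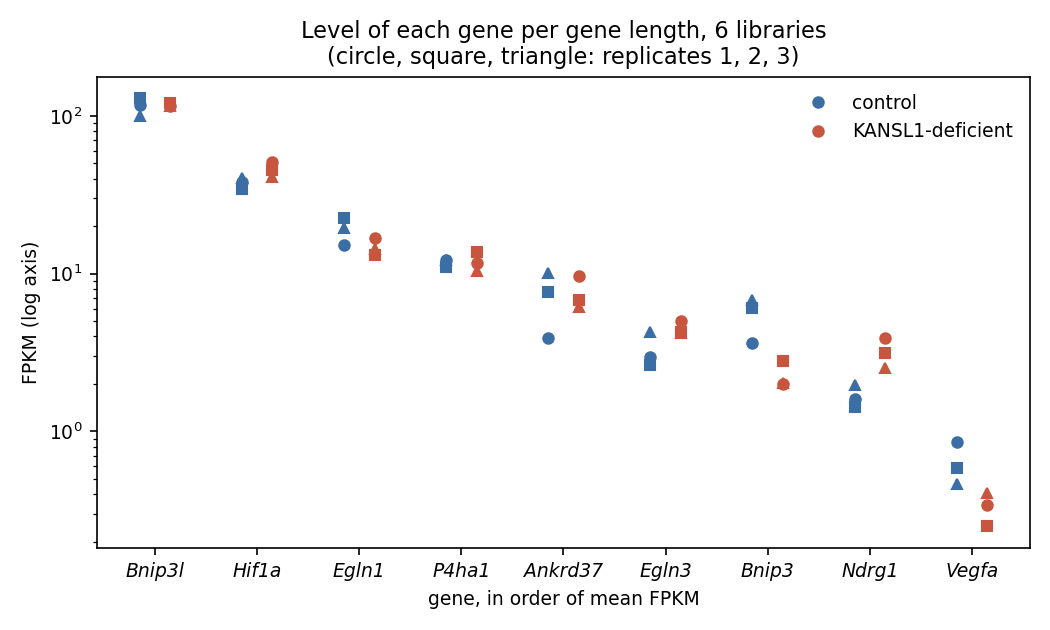
FPKM (log axis) of each gene in the 6 libraries, ordered by mean; blue points are control and red points KANSL1-deficient libraries, shaped by replicate. The levels run from about 116 FPKM for Bnip3l to 0.48 FPKM for Vegfa, and the order of Bnip3 and Ndrg1 is opposite in the 2 groups.

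The genes whose profiles over the 6 libraries were nearest to Ndrg1 and to Hif1a were found among 8813 protein-coding genes averaging 5 CPM or more, by the root-mean-square difference of centred log2 CPM. For Ndrg1, whose own root-mean-square spread was 0.58, the nearest was Abcc5, an organic anion transporter, at 0.11, followed by Phf6, a chromatin-associated zinc finger gene, at 0.14 and Clic4 at 0.15. Abcc5 had 189, 191 and 241 CPM in controls and 487, 460 and 385 CPM in KANSL1-deficient libraries (log2 fold change 1.10 ± 0.14, SE; edgeR adjusted p = 0.00324). For Hif1a, with a spread of 0.25, the nearest were Entpd5 at 0.03, Ppp2r5c, a regulatory subunit of protein phosphatase 2A, at 0.04 and Cdc42se2 at 0.04. Their log2 fold changes were 0.41, 0.40 and 0.50. All 6 genes were picked for likeness over the same libraries. Fold changes near those of Ndrg1 and Hif1a therefore follow from the choice and are no separate result. None of these 6 genes is on the pathway lists.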

How the data were processed

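RNA-seq libraries of sorted double-positive thymocytes from 3 control and 3 KANSL1-deficient mice were compared. Groups and replicate numbers came from the sample titles, and no library was left out. Per the submitters' processing notes, the tools were STAR, featureCounts and DESeq2, on GRCm39; their versions and the strand setting are not stated in the sources used here. The deposited counts are whole reads per gene. The authors also deposited FPKM values, and their own comparison, which holds for each gene the mean normalized signal, the linear ratio between groups, its log2, the p-value and the adjusted value. Poly(A) RNA was selected, per the labels' protocols.

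Counts were tested with edgeR 4.0.16 in R 4.3.3 (TMM scaling, filter by group with minimum count 10 and minimum total 15, robust quasi-likelihood test, Benjamini-Hochberg adjustment at 0.05). The SE is the log2 fold change over the square root of F, and intervals are 95%. Log2 CPM used a prior count of 2. Alternatives were other scalings and filters, DESeq2 1.42.0, limma 3.58.1 with voom or on log2 of FPKM plus 1 or 0.1, a replicate block, and each library left out. On counts simulated for 15353 genes of this comparison, the test recovered 14.9% of genes with a 1.5-fold change, 56.7% at 2-fold and 97% at 4-fold, and called 11 of 15153 unchanged genes. Changed genes were drawn from those with at least 5 CPM.

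The members and lists were chosen with earlier results of these data known. Named genes were the 9 members, Kansl1, each listed gene past the threshold, the 3 tested genes of smallest p per list, and the 3 genes nearest in profile to Hif1a and to each called member. Slc2a1, Pgk1, Ldha, Eno1, Tpi1, Vhl, Hif1an, Epas1, Hif3a, Fundc1, Ndrg2 and the marker genes named were added for context after their values were seen. Adm, Car12, Pgf and Rora were added in the same way. Of the pathway lists' 98 genes, 3 of the VEGF list (Vegfc, Vegfd and Kdr) were not analysed here. Some marker gene results are not reported here. Promoter windows are RefSeq's in GRCm38.p6, and the positions of genes come from the deposited count table (GRCm39).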

Additional observations from a re-analysis of the deposited data

How the results depend on the processing

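Of 134 values of the 9 genes under 15 alternatives, 116 kept their direction and their side of the threshold, 7 lost a call and 9 gained one. The 2 that reversed were Ankrd37 without control replicate 1 and without KANSL1-deficient replicate 1; with 1 library left out its log2 fold change was -0.10 to 0.53. The 9 genes had 1 past the threshold with edgeR and 2 with library totals or no filter (Bnip3 and Ndrg1). They had 3 with at least 5 CPM in 3 libraries or with DESeq2, which adds Hif1a. With 1 library left out, 0 to 1 passed, with 3 at an unadjusted p under 0.05 wherever the count was 0. Bnip3 in place of Ndrg1 passed with limma on log2 FPKM and without control replicate 1. Listed pathway genes past the threshold, members included, were 6 in the reported fit (5 higher, 1 lower), 7 with library totals (3 higher, 4 lower), 13 without a filter, 12 with the 5 CPM filter, 16 with DESeq2 and 2, both lower, with limma on log2 FPKM plus 1 or plus 0.1. With 1 library left out they were 0 to 5, and where the count was 0 (without KANSL1-deficient replicate 2) 16 had an unadjusted p under 0.05. All tested genes past the threshold were 1038, and 1729 without a filter, 2040 with DESeq2, and 283 to 811 with 1 library left out. The share of called genes that were higher was 56.9% with TMM, 27.7% with library totals and 31.5% with log2 FPKM. The labels do not say whether equal replicate numbers pair the libraries. Same-numbered libraries had correlations of -0.05, -0.02 and -0.10 of their deviations, and other-numbered ones -0.03 to 0.07. With 3 libraries per group, such values cannot tell whether the libraries are paired. With a replicate block, 0 of the 9 genes passed (3 at an unadjusted p under 0.05), 1 listed gene passed (Hmox1), and 406 of all genes did. Vegfa had the lowest counts of the 9 genes, 24 to 71 per library.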
